A study of Homo sapiens with 4 samples.

Results

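The genes of the proteasome subunits and regulators were examined in TE5, a line of human squamous carcinoma cells from the oesophagus. Members were all rows of the FPKM table named PSMA, PSMB, PSMC, PSMD, PSME, PSMF or PSMG followed by a number, which gave 48 of the 55764 genes listed. In the 2 ETS1 libraries the cells stably carried a lentiviral vector with human ETS1 under a CMV promoter, while cells of the 2 control libraries had received the empty backbone. ETS1 is a transcription factor that binds a GGAA core. The labels name no clone, passage or culture, so p-values measure the spread between these libraries, which may be technical.

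The proteasome is the protease that degrades proteins marked with ubiquitin. Its core particle is built of rings of alpha subunits, which gate the entrance, and of beta subunits, of which PSMB5, PSMB6 and PSMB7 cut the chain. A regulatory cap with a base of ATPases and a lid recognises, deubiquitinates and unfolds the substrate. Interferon-gamma induces the immunoproteasome, in which PSMB8, PSMB9 and PSMB10 replace PSMB5, PSMB6 and PSMB7 and the PSME1 and PSME2 cap joins, and which makes many of the peptides shown on MHC class I.

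ETS1 itself read 0.491 and 0.509 FPKM in the controls and 1.84 and 1.87 FPKM in the ETS1 libraries. FPKM is a count of fragments scaled to gene length and to the size of the library. The 142 and 161 reads of the controls against 756 in each ETS1 library go the way of the labels (log2 change 0.93, standard error (SE) 0.062, limma adjusted p = 0.000704). Reads recovered from the tables came to 40333082 and 44094639 in the controls and 57236984 and 56469816 in the ETS1 libraries, a mean 1.35 times as high. Epithelial markers were present, with 3 of 5 at 1 FPKM or more and a summed level of 16.1 to 16.9 FPKM. The squamous markers KRT5, KRT14 and TP63 summed to at most 0.0289 FPKM in any library, so they were near 0. Blood markers summed to 0.834 and 1.02 FPKM in the controls and 1.64 and 1.56 FPKM in the ETS1 libraries, with 1 of 5 reaching 1 FPKM. Fibroblast markers summed to 2.22 and 2.08 FPKM in the controls and 2.85 and 2.94 FPKM in the ETS1 libraries, with 1 of 4 reaching 1 FPKM, and the part of either list in the results was not tested.

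RefSeq promoter windows, from 250 bases before to 50 after an annotated start on GRCh38.p14, were found for 42 of the 48 members, 51 windows in all. Shown are the windows of PSMB10, PSME1 and PSME2, because these immunoproteasome genes hold an interferon-type repeat (PSMB8, near 0 in level, also holds one and is not shown), that of PSMG4, a falling chaperone gene that holds both this repeat and an ETS core, and 1 of the 2 windows of PSMF1, which holds 2 ETS cores where the other holds 0. Each runs 5′ to 3′ on the strand of the gene, and capitals mark the letters that match a searched motif on either strand.
PSMB10, chr16:67936801-67937100, minus strand: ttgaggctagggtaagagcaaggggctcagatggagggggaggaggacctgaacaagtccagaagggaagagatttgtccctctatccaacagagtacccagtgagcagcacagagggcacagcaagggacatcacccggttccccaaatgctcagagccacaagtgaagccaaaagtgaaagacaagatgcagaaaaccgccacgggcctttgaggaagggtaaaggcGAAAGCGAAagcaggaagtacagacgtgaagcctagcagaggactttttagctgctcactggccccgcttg
PSME1, chr14:24135944-24136243, plus strand: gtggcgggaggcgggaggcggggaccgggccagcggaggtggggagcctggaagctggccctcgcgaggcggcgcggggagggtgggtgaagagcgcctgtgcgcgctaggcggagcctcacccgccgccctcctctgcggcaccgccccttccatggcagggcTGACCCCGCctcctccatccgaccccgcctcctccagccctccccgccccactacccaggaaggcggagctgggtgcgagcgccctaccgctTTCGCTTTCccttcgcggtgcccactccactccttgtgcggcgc
PSME2, chr14:24146561-24146860, minus strand: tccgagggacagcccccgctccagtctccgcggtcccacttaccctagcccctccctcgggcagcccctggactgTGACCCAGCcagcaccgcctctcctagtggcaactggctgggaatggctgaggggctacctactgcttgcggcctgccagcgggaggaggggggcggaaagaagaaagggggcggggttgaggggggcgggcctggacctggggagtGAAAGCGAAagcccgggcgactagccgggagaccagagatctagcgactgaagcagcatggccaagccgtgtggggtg
PSMG4, chr6:3258697-3258996, plus strand: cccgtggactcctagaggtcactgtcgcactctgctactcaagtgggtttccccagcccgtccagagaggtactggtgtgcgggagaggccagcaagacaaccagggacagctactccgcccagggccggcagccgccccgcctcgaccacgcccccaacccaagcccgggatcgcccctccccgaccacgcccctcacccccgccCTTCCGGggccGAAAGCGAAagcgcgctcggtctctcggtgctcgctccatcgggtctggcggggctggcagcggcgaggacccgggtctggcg
PSMF1, chr20:1118352-1118651, plus strand: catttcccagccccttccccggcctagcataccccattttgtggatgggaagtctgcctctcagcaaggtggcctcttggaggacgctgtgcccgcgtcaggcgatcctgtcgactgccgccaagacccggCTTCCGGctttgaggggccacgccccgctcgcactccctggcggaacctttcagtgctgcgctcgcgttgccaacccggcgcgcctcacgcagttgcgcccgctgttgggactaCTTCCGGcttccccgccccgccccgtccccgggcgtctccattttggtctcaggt

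The capitals in the PSMB10 window are GAAANNGAA, an interferon-type repeat, which begins at position -21 from the start. PSME2 holds the same letters at position -28 and PSMG4 at position -33, while in PSME1 the repeat reads on the other strand at position 6, inside the transcript. The other capitals in PSME1 and PSME2 are TGACNNNGC, the antioxidant-type site bound by NFE2L1 and NFE2L2. In PSMG4 and PSMF1 the ETS core CCGGAAG appears as its reverse complement. A match of letters is a description and not a measured binding site.

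Most of the proteasome genes that could be tested were lower with ETS1, by small and tightly measured amounts. Of 40 members with a mean of at least 1 FPKM, 25 fell, 4 rose and 11 did not pass an adjusted p of 0.05 in limma. The 25 that fell stood at 61.8% to 93.0% of their control level, and the 4 that rose stood at 1.08 to 1.17 times it. No tested member changed by as much as 1 on the log2 scale (0 of 40). In bulk RNA, a lower level in each cell and fewer cells with the transcript cannot be told apart. The median log2 change of the tested members was -0.16, beside 0.016 over all 14306 genes tested. With quantile normalization the median of the members was -0.058.

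Read against the whole table, 62.5% of the tested members were called lower, where 28.4% of all tested genes were, and 10% were called higher, where 30.7% were. Without a test, both ETS1 libraries lay below both controls for 28 members and above both for 6, while the groups overlapped for 6. The same held for 38.9% of all tested genes downward and 43.1% upward. Tested members were abundant, with a median control level of 37.4 FPKM against 6.13 FPKM for all tested genes. Among the genes with a mean of at least 5 FPKM, 24 of 38 members were called lower, beside 36.5% of all genes at that level. The authors' deposited table called 28 of its 42 members lower and 2 higher, where it called 25.9% and 25.3% of its genes lower and higher. It shared 25 lower calls with the fit used here, and 2 higher calls, PSMD1 and PSMD10.

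Replicates were close: the median coefficient of variation of a tested member was 1.42% for the control pair and 1.60% for the ETS1 pair. Of the 25 lower calls, 16 held in each alternative that was run for them and 18 held when each library was left out in turn. Without ETS1 library 2 the calls of PSMB1 (adjusted p = 0.0706), PSMC3 (0.0699), PSMD6 (0.0790) and PSMG3 (0.0540) were lost, and without ETS1 library 1 that of PSMD12 (0.0670). PSMA7 and PSMB4, described with their rings, make up the rest of the lost calls. None of the 4 higher calls held under each omission (0 of 4). Quantile normalization gave 19 lower and 6 higher members, and removal of the median change of each chromosome gave 28 lower and 0 higher. The shares of all tested genes called in these fits were not counted, so these member counts have no background beside them.

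**Figure D1:**
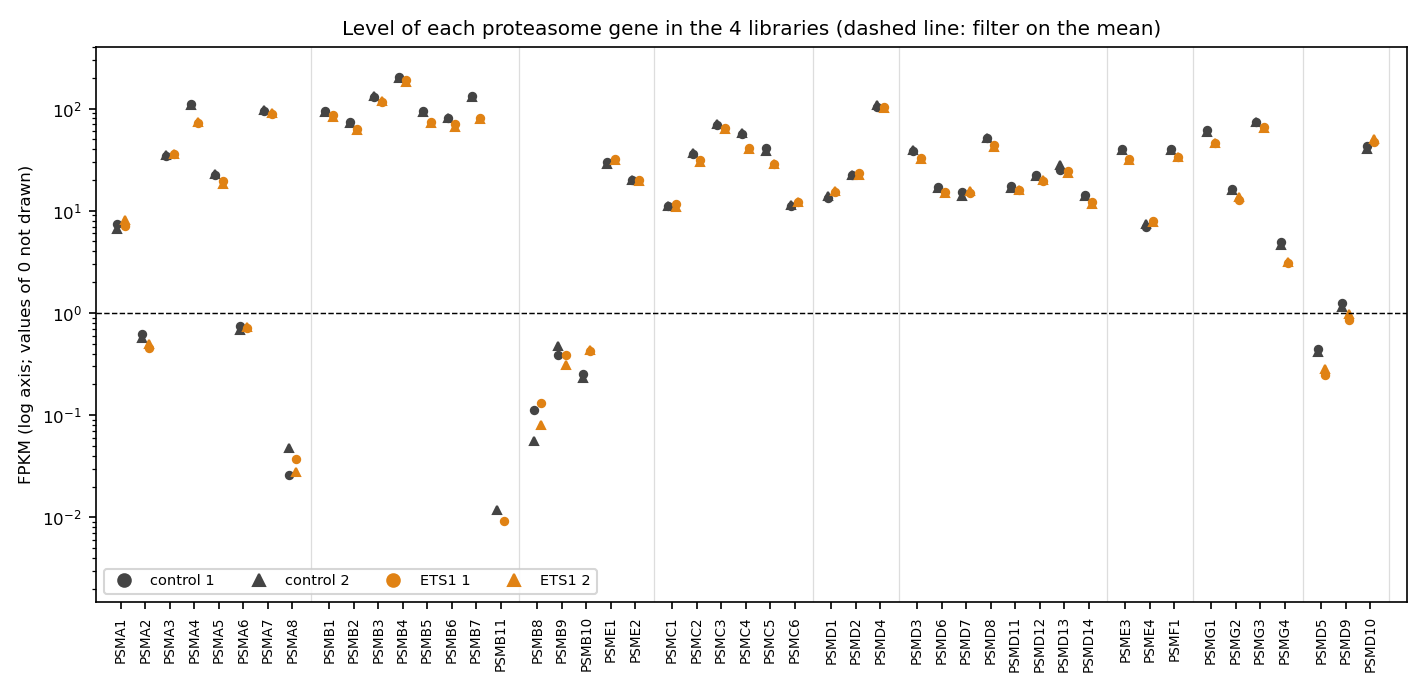
FPKM (log axis) of the 48 proteasome genes in each library, with controls in grey, ETS1 libraries in orange, circles for library 1 and triangles for library 2. From left to right the blocks are alpha ring, beta ring, immunoproteasome, cap ATPases, other base subunits, lid, other caps and inhibitor, core chaperones and base chaperones; 8 members have a mean below the dashed line at 1 FPKM.

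In the beta ring, which holds the cutting sites, all 7 tested subunits fell, where 28.4% of all tested genes were called lower. With quantile normalization PSMB5, PSMB6 and PSMB7 stayed lower, and the calls of PSMB1 (adjusted p = 0.824), PSMB2 (0.222), PSMB3 (0.323) and PSMB4 (0.169) were lost. PSMB7, which carries the trypsin-like site, had 131.2 and 129.5 FPKM in the controls and 81.4 and 79.9 FPKM in the ETS1 libraries. The groups were far apart, and its log2 change of -0.69 (SE 0.026, adjusted p = 0.000439) had the largest size among the tested members. PSMB5, the chymotrypsin-like site and the target of bortezomib, had 93.8 and 92.5 FPKM in the controls and 73.5 and 72.5 FPKM with ETS1. Its log2 change was -0.35 (SE 0.026, adjusted p = 0.000843), again without overlap. PSMB6, the caspase-like site, went from 81.4 and 80.5 FPKM to 70.0 and 66.4 FPKM (log2 change -0.24, SE 0.034, adjusted p = 0.0040). The 3 constitutive catalytic genes thus stood at 61.8%, 78.4% and 84.3% of their control means.

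The non-catalytic beta subunits give the ring its structure. PSMB4, the most abundant member, had 204.2 and 199.8 FPKM in the controls and 190.5 and 180.8 FPKM with ETS1. Its log2 change of -0.12 (SE 0.036, adjusted p = 0.0366) was the smallest of the ring. Its adjusted p was 0.109 without control library 1, 0.0612 without control library 2 and 0.181 without ETS1 library 2. PSMB1 had 94.6 and 93.0 FPKM in the controls and 85.7 and 83.1 FPKM with ETS1 (log2 change -0.15, SE 0.029, adjusted p = 0.009997). PSMB2 and PSMB3, which also carry no active site, changed by -0.21 and -0.17 on the log2 scale. With the length trend removed the calls of PSMB1 (adjusted p = 0.0676), PSMB3 (0.0871) and PSMB4 (0.308) were lost. The thymus-specific PSMB11 reached at most 0.0119 FPKM and was not tested.

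The alpha ring, which gates the core, was split. PSMA4 had 111.0 and 109.2 FPKM in the controls and 72.5 and 73.6 FPKM with ETS1, a log2 change of -0.59 (SE 0.026, adjusted p = 0.000467). It lies on chromosome 15, where the median log2 change of 394 tested genes was -0.23, and it stood -0.36 from that median. PSMA5 fell from 22.6 and 22.8 FPKM to 19.4 and 18.1 FPKM (log2 change -0.26, SE 0.041, adjusted p = 0.00537). PSMA7 fell from 95.4 and 97.2 FPKM to 88.1 and 91.0 FPKM, by 0.10 on the log2 scale (SE 0.030, adjusted p = 0.0340), a call that was lost when any one library was left out (adjusted p from 0.0523 to 0.190). With the length trend removed its log2 change was -0.020 (adjusted p = 0.593), and with quantile normalization 0.042 (adjusted p = 0.281).

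PSMA3 and PSMA1 did not pass the test. PSMA3 had 34.2 and 35.0 FPKM in the controls and 36.1 and 35.7 FPKM with ETS1 (log2 change 0.051, adjusted p = 0.174), without overlap, and was called higher with quantile normalization (0.16, adjusted p = 0.0086). PSMA1 had 7.47 and 6.57 FPKM in the controls and 7.15 and 8.10 FPKM with ETS1, with overlapping groups, and 88.6% of its coding bases are shared with AC018523.2 on the same strand, so its value is uncertain. Both PSMA2 and PSMA6 lay below the filter. PSMA2 had 0.616 and 0.574 FPKM in the controls and 0.450 and 0.492 FPKM with ETS1, without overlap (no-filter adjusted p = 0.234), and PSMA6 ranged from 0.688 to 0.745 FPKM, with overlap. The testis-specific PSMA8 was at most 0.0482 FPKM.

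The levels of PSMA6 and PSMA2 are uncertain. The length behind the FPKM of PSMA6 was 8.55 times its longest coding sequence, which lowers its FPKM. PSMA6 averaged 0.719 FPKM, while the rows of its processed pseudogenes PSMA6P1 and PSMA6P2 averaged 10.5 and 2.75 FPKM. Reads of near-identical copies can be split by the counting. Of the coding bases of PSMA6, 70.4% are shared with AL121594.1 on the same strand. PSMA2 shares 34.6% of its exonic bases with other genes in GENCODE 29, mainly AC010132.2, AC010132.3 and MRPL32. Of its coding bases, 97.1% are shared on the same strand.

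In the immunoproteasome the catalytic genes were barely expressed, and the cap genes were not. PSMB8 had 0.111 and 0.0565 FPKM in the controls and 0.130 and 0.0793 FPKM with ETS1, with overlap. PSMB9 had 0.387 and 0.479 FPKM in the controls and 0.391 and 0.310 FPKM with ETS1, again with overlap, from 48 to 69 reads a library. The ratio of its depth-scaled reads was 0.808, with a 95% interval of 0.621 to 1.05. This interval, like those on reads of PSMB10 and PSMD5, is exact and covers counting error only.

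PSMB10 was the exception among the 3 genes. It had 0.254 and 0.232 FPKM in the controls and 0.423 and 0.439 FPKM in the ETS1 libraries, from 19 reads in each control and 45 and 46 with ETS1. The groups did not overlap, and the ratio was 1.78 (95% interval 1.20 to 2.67). PSMB10 lay below the filter of the main test. In a fit with no filter its adjusted p was 0.0440 (log2 change of FPKM + 1 of 0.20), and in voom on recovered reads at a mean of at least 10 reads, a fit added after seeing the data, the log2 change was 0.81 (SE 0.29, adjusted p = 0.0305). In GENCODE 29, 34.8% of its exonic bases are shared with AC040162.1 on the same strand, so its reads cannot be assigned with certainty.

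PSME1 and PSME2, the alpha and beta subunits of the interferon-inducible cap, were both above 19 FPKM in each library. PSME1 had 29.7 and 28.9 FPKM in the controls and 31.8 and 31.2 FPKM with ETS1, a rise of 0.10 on the log2 scale (SE 0.030, adjusted p = 0.0355). The authors' deposited table gave 0.079 with an adjusted p of 0.270, and removal of the median of chromosome 14 gave 0.051 with an adjusted p of 0.197. The call was also lost without control library 2 (adjusted p = 0.104), ETS1 library 1 (0.186) or ETS1 library 2 (0.113). PSME2 had 20.2 and 19.8 FPKM in the controls and 19.9 and 19.5 FPKM with ETS1, with overlap (log2 change -0.019, 95% interval -0.096 to 0.057).

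Relative to the constitutive genes they replace, the catalytic immunoproteasome genes stayed under 1% in each library. PSMB10 stood at 0.193% and 0.179% of PSMB7 in the controls and at 0.520% and 0.549% in the ETS1 libraries, 2.87 times the control ratio. Both the higher PSMB10 and the lower PSMB7 enter that ratio. PSMB9 was 0.475% and 0.594% of PSMB6 in the controls and 0.559% and 0.467% with ETS1, with overlap. PSMB8 was 0.118% and 0.0610% of PSMB5 in the controls and 0.177% and 0.109% with ETS1, also with overlap.

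Among the caps, PSME1 stood at 0.744 and 0.738 of PSME3, the nuclear cap subunit that interferon does not induce, in the controls and at 0.986 and 0.991 with ETS1. That is 1.33 times the control ratio. For PSME2 to PSME3 the ratio was 0.505 and 0.507 in the controls and 0.618 and 0.619 with ETS1, or 1.22 times the control ratio. PSME3 fell while PSME2 overlapped between groups, so the lower PSME3 enters both cap ratios. For the ratios of PSMB10, PSME1 and PSME2 the two-sided exact permutation p was 0.333, the smallest that 2 libraries against 2 allow. For PSMB8 and PSMB9 it was 0.667.

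**Figure D2:**
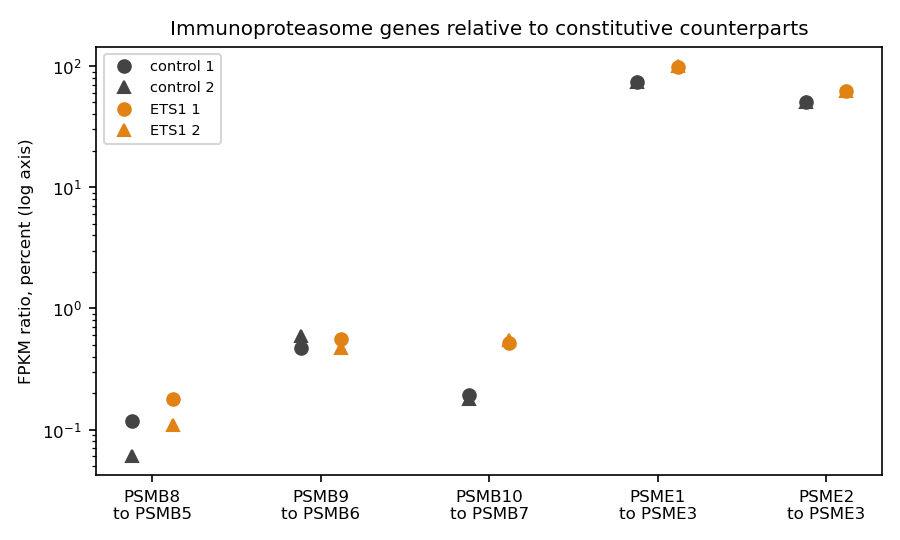
Ratio of FPKM in percent (log axis) of each immunoproteasome gene to its constitutive counterpart, per library, with controls in grey and ETS1 libraries in orange. The ETS1 points lie above the controls for PSMB10 to PSMB7 (0.520% and 0.549% against 0.193% and 0.179%) and for both cap ratios, whose denominator PSME3 fell, and the groups overlap for PSMB8 and PSMB9.

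In the cap, 9 of 17 subunits fell and 2 rose, where 28.4% of all tested genes were called lower and 30.7% higher. Among all genes with a mean of at least 5 FPKM, 36.5% were called lower. The ATPases of the base, which unfold the substrate and open the core, gave 4 lower and 1 higher of 6. PSMC4 had 55.8 and 57.1 FPKM in the controls and 40.7 and 40.05 FPKM with ETS1 (log2 change -0.47, SE 0.028, adjusted p = 0.000601). PSMC5 had 40.8 and 38.4 FPKM in the controls and 28.6 and 28.97 FPKM with ETS1 (log2 change -0.45, SE 0.038, adjusted p = 0.00112). These 2 ATPases stood at 71.5% and 72.8% of control, well outside the replicate spread. PSMC2 and PSMC3 changed by -0.23 and -0.14. The call on PSMC3 was lost with quantile normalization (0.020, adjusted p = 0.548) and with the length trend removed (-0.071, adjusted p = 0.0746).

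The remaining ATPases differed from these. PSMC6 had 11.2 and 11.4 FPKM in the controls and 12.1 and 12.3 FPKM with ETS1, a rise of 0.10 on the log2 scale (SE 0.031, adjusted p = 0.0390). The call on PSMC6 was lost when any one library was left out (adjusted p from 0.0618 to 0.2002), and the authors' deposited table gave an adjusted p of 0.155. With the length trend removed its log2 change was 0.0056 (adjusted p = 0.889). PSMC1 had 11.2 and 11.2 FPKM in the controls and 11.5 and 10.8 FPKM with ETS1, with overlap. Of the exonic bases of PSMC1, 75.8% lie opposite NRDE2, and its pseudogene row PSMC1P1 averaged 51.1 FPKM beside 11.2 FPKM for PSMC1, so the value of PSMC1 is uncertain.

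Of the 3 non-ATPase subunits of the base among the members, which bind ubiquitin and its carriers, 1 rose and 2 did not pass the test. That is 33.3% called higher, near the 30.7% of all tested genes. PSMD1 had 13.3 and 13.8 FPKM in the controls and 15.4 in each ETS1 library, a rise of 0.17 (SE 0.032, adjusted p = 0.00957). Its call was lost without ETS1 library 1 (adjusted p = 0.0544) or 2 (0.0613), and after removal of the chromosome 2 median (0.0785). PSMD2 had 22.5 and 22.6 FPKM in the controls and 23.3 and 22.3 FPKM with ETS1, and PSMD4, the ubiquitin receptor, had 102.6 and 108.3 FPKM in the controls and 104.5 and 102.0 FPKM with ETS1. Both overlapped between groups, with 95% intervals of -0.073 to 0.10 and -0.12 to 0.064. PSMD4 was called higher with quantile normalization (0.14, adjusted p = 0.0202).

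In the lid, which holds the deubiquitinating enzyme PSMD14, 5 of 8 subunits fell and 0 rose. Of all tested genes 28.4% were called lower and 30.7% higher. PSMD8 had 50.9 and 51.8 FPKM in the controls and 43.7 and 42.4 FPKM with ETS1 (log2 change -0.25, adjusted p = 0.0024). PSMD3 had 38.2 and 39.0 FPKM in the controls and 32.9 and 32.4 FPKM with ETS1 (log2 change -0.24, adjusted p = 0.0024). The groups were separate for both. PSMD14, PSMD6 and PSMD12 changed by -0.23, -0.15 and -0.15.

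The other 3 lid subunits did not pass. PSMD13 gave -0.14 with an adjusted p of 0.0871, and passed without control library 1 (adjusted p = 0.0156). The authors' deposited table gave PSMD13 -0.16 with an adjusted p of 0.0078. PSMD11 had 17.5 and 16.8 FPKM in the controls and 16.1 in each ETS1 library (log2 change -0.085, adjusted p = 0.0804). PSMD11 passed in the authors' deposited table (adjusted p = 0.0408) and after removal of the chromosome 17 median (0.0374). PSMD7 had 15.1 and 14.1 FPKM in the controls and 14.8 and 15.7 FPKM with ETS1, with overlap.

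**Figure D3:**
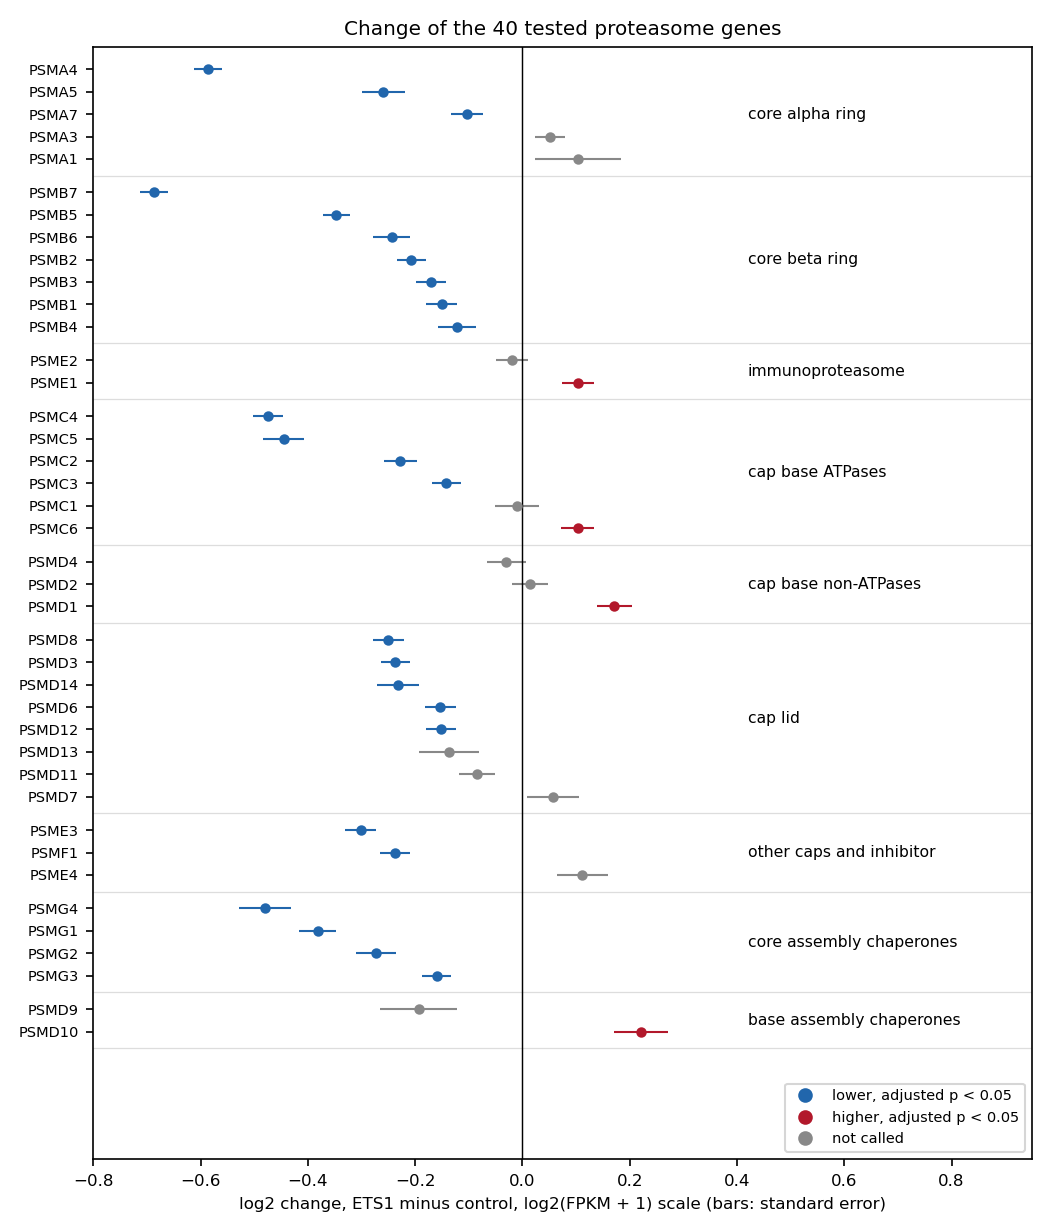
Change on the log2(FPKM + 1) scale, ETS1 minus control, of the 40 tested proteasome genes (points, with bars for the standard error), ordered within functional groups. Blue points are called lower, red points higher and grey points neither; all 7 beta ring genes and all 4 core assembly chaperones lie left of 0.

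The other regulators of the core moved unequally. PSME3 had 39.9 and 39.1 FPKM in the controls and 32.3 and 31.5 FPKM with ETS1 (log2 change -0.30, adjusted p = 0.00146). PSMF1, which encodes the inhibitor PI31, had 40.1 and 39.3 FPKM in the controls and 33.8 and 33.2 FPKM with ETS1 (log2 change -0.24, adjusted p = 0.00242). Both fell without overlap. PSME4, the cap associated with acetylated histones, had 6.87 and 7.48 FPKM in the controls and 7.91 and 7.75 FPKM with ETS1 (log2 change 0.11, adjusted p = 0.103, or 0.0332 without control library 2). With the length trend removed PSME4 stood at -0.023.

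All 4 core assembly chaperones, which pair up to build the alpha ring, fell, where 28.4% of all tested genes were called lower. PSMG1 had 61.7 and 58.6 FPKM in the controls and 45.7 and 46.1 FPKM with ETS1 (log2 change -0.38, 95% interval -0.47 to -0.29, adjusted p = 0.00125). Its partner PSMG2 had 16.3 and 16.1 FPKM in the controls and 12.8 and 13.6 FPKM with ETS1 (log2 change -0.27, adjusted p = 0.00368). PSMG2 lies on chromosome 18, where the median of the tested genes was 0.14, in the other direction.

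PSMG3 and PSMG4 form the other pair. PSMG3 had 73.5 and 73.9 FPKM in the controls and 66.7 and 65.0 FPKM with ETS1 (log2 change -0.16, adjusted p = 0.0067). Its call was lost without ETS1 library 2 (adjusted p = 0.0540), and with quantile normalization its log2 change was 0.015 (adjusted p = 0.596). With the length trend removed its adjusted p was 0.0579. PSMG4 had 4.92 and 4.57 FPKM in the controls and 3.09 and 3.15 FPKM with ETS1 (log2 change -0.48 on the log2(FPKM + 1) scale, adjusted p = 0.00159). Its plain FPKM stood at 65.7% of control, a larger change, since the added 1 weighs on low values. The length behind its FPKM was 21.4 times its longest coding sequence, which lowers its level but is the same in each library.

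Of the base assembly chaperones, PSMD10 rose, and PSMD9 and PSMD5 had lower values in both ETS1 libraries. PSMD10, known as gankyrin, an oncoprotein that binds RB1, had 42.9 and 39.9 FPKM in the controls and 46.9 and 49.96 FPKM with ETS1. It rose by 0.22 on the log2 scale (SE 0.050, adjusted p = 0.0172), the largest increase among the tested members. Its adjusted p was 0.0759 without ETS1 library 2 and 0.0773 after removal of the median of the X chromosome (0.099). PSMD9 had 1.24 and 1.14 FPKM in the controls and 0.853 and 0.977 FPKM with ETS1 (log2 change -0.19, adjusted p = 0.0709), and the authors' deposited table gave it -0.35 with an adjusted p of 0.0091. Of its coding bases, 58.7% are shared with other genes on the same strand, so the value of PSMD9 is uncertain.

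PSMD5, the third base chaperone, lay below the filter. It had 0.441 and 0.414 FPKM in the controls and 0.248 and 0.283 FPKM with ETS1, from 79 and 81 reads against 63 and 71. The groups did not overlap and the ratio of depth-scaled reads was 0.622 (95% interval 0.490 to 0.787). In the fit with no filter its adjusted p was 0.0717. In the voom fit at a mean of at least 10 reads the log2 change was -0.69 (SE 0.19, adjusted p = 0.00944).

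Position on the chromosomes was set beside the changes, because the median change differed from chromosome to chromosome. PSMB7 lies on chromosome 9, where the median log2 change of 487 tested genes was -0.11, and it stood -0.58 from that median. After each chromosome's median was removed, 28 members were lower, among them the 25 called before. The share of all genes called lower in that fit was not counted. The 4 higher members lie on chromosomes with positive medians, from 0.052 on chromosome 14 to 0.099 on the X chromosome. So do most of the tested members and most of those called lower, so this does not set the higher members apart. Whether copy number differed between the cultures was not tested.

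**Figure D4:**
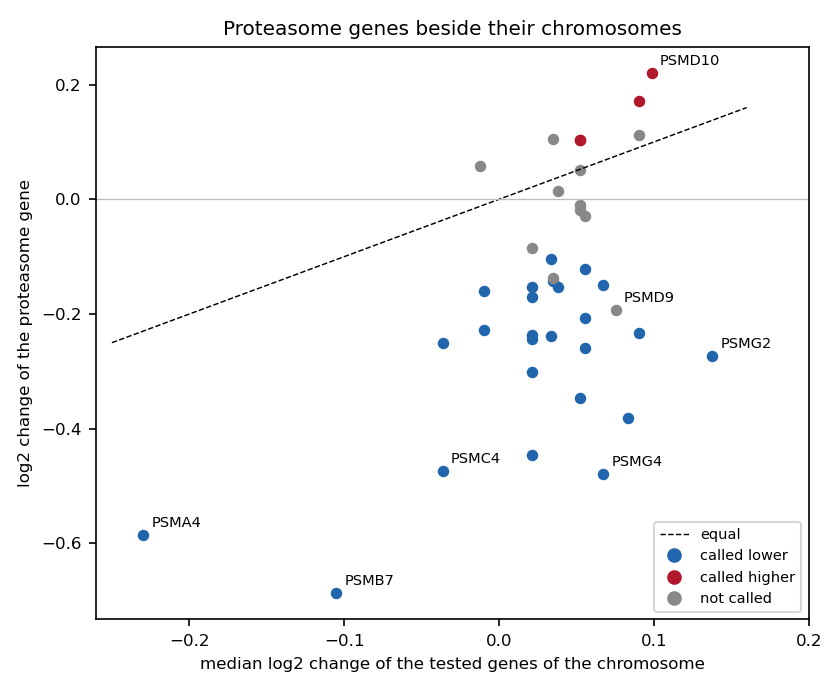
Log2 change of each tested proteasome gene (vertical axis) beside the median log2 change of the tested genes of its chromosome (horizontal axis); the dashed line marks equal values and colours mark the calls. PSMA4 and PSMB7 sit on chromosomes with negative medians (-0.23 and -0.11) and still below the line, and the 4 red points sit at positive medians, as do most blue points.

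Other parts of the proteasome and its assembly, outside the named families, were set beside the members. Of 12 genes tested 6 fell and 1 rose, with a median log2 change of -0.12, where 28.4% of all tested genes were called lower and 30.7% higher. KIAA0368, which encodes a proteasome adaptor, had 23.8 and 24.7 FPKM in the controls and 18.1 and 18.5 FPKM with ETS1 (log2 change -0.39, adjusted p = 0.00111). POMP, the maturation protein of the core, had 104.1 and 101.2 FPKM in the controls and 84.4 and 79.5 FPKM with ETS1 (log2 change -0.32, adjusted p = 0.00262). TXNL1, a thioredoxin bound to the cap, changed by -0.27. ADRM1, a ubiquitin receptor of the cap base, fell by 0.14 (adjusted p = 0.0299), a call made in 8 of 15 fits. The single gene that rose was ZFAND5, an activator of the cap, at 0.23, and it and ADRM1 were named after their values were seen.

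Regulators of proteasome genes were mixed, with 6 higher and 3 lower of 14 tested and a median of 0.012, beside 30.7% higher and 28.4% lower over all tested genes. BACH1, a repressor at antioxidant sites, had 3.61 and 3.63 FPKM in the controls and 6.45 and 7.01 FPKM with ETS1 (log2 change 0.74, adjusted p = 0.000684). HSF1, the heat shock activator, had 28.8 and 29.5 FPKM in the controls and 18.5 in each ETS1 library (log2 change -0.63, adjusted p = 0.000476). NFYA, a subunit of the factor that binds CCAAT, changed by 0.42. NFYC, another subunit of that factor, and NGLY1, an activator of NFE2L1, changed by -0.29 and -0.27. NFYA and NFYC, subunits of the same factor, thus moved in opposite directions, while its subunit NFYB overlapped between groups (log2 change 0.011, adjusted p = 0.783). NFE2L1, the activator that restores proteasome genes when the protease is inhibited, had 24.9 and 25.8 FPKM in the controls and 29.3 and 29.4 FPKM with ETS1 (log2 change 0.20, adjusted p = 0.0048). NFYB, NFYC, NGLY1 and NFE2L1 were named after their values were seen.

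The ubiquitin genes and activating enzymes gave 2 higher and 3 lower of 6, with a median of -0.067, where 30.7% of all tested genes were called higher and 28.4% lower. With quantile normalization 0 of them were lower. UBA6, an activating enzyme, changed by 0.29. UBB rose by 0.16 and RPS27A fell by 0.17, both named after their values were seen. Carriers that deliver substrates to the proteasome gave 1 higher and 6 lower of 12, with a median of -0.11, against 30.7% higher and 28.4% lower over all tested genes. UBQLN2 changed by 0.37, UBQLN4 by -0.36 and RAD23B by -0.30, all of them ubiquitin-binding shuttles.

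Interferon regulators of the immunoproteasome gave 4 higher and 0 lower of 9 tested, with a median of 0.047, where 30.7% of all tested genes were called higher and 28.4% lower. The list also counts TAP1 and TAP2, which encode peptide transporters rather than regulators and were named after their values were seen. Neither passed the test, with log2 changes of -0.0038 (adjusted p = 0.942) and -0.086 (adjusted p = 0.286). The kinase JAK1 had 14.3 and 14.2 FPKM in the controls and 19.96 and 19.8 FPKM with ETS1 (log2 change 0.46, adjusted p = 0.000632). STAT2 changed by 0.42, and IRF1, named after its value was seen, by 0.36. The immunoproteasome genes these factors act on were PSMB10, higher without overlap at a very low level, PSME1, higher by 0.10, and PSMB8, PSMB9 and PSME2, whose groups overlapped.

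The promoter windows of the members held the searched letters as follows, counted on both strands. The ETS core CCGGAAG was in 29.4% of 51 member windows, 10.3% of all 35116 windows and 16.98% of the windows of tested genes. TGACNNNGC was in 29.4% of member windows and 13.3% of all windows, and CCAAT in 39.2% and 34.6%. The interferon-type GAAANNGAA was in 15.7% and 8.11%, and TTCNNNGAA, the gamma-activated type, in 15.7% and 7.66%. GAAANNGAA was found in 8 members, among them PSMB8, PSMB10, PSME1 and PSME2.

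By call, the ETS core was in 7 of 20 falling members with a window, 1 of 4 rising members and 5 of 10 that did not pass. CCAAT was in 14 of 20 falling members, 1 of 4 rising members and 2 of 10 that did not pass. In the same order, TGACNNNGC was in 8 of 20, 2 of 4 and 3 of 10. GAAANNGAA was in 4 of 20, 1 of 4 and 1 of 10. TTCNNNGAA was in 4 of 20, 0 of 4 and 1 of 10. Among members not tested, the ETS core was in 2 of 8 and CCAAT in 3 of 8. A member with several windows counted if any held the letters, and PSMA4, PSMB5 and PSMC5 held CCAAT in 1 window only. No share over all genes was counted this way, and no test was run. Motifs may overlap one another, and no match says only that these letters are not in this window. No windows were found for PSMA7, PSMB1, PSMB6, PSMB7, PSMD4 and PSMG3.

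Rows named as pseudogenes of the members were not counted as members. There were 30, of which 14 were at 0 in each library and 4 averaged at least 1 FPKM. PSMC1P1 had 51.0 and 53.7 FPKM in the controls and 50.3 and 49.3 FPKM with ETS1, and PSMA6P1 had 10.4 and 10.5 FPKM in the controls and 9.73 and 11.3 FPKM with ETS1. PSMD12P averaged 1.25 FPKM beside 21.0 FPKM for PSMD12. The highest value of any other pseudogene row was 0.870 FPKM. A low pseudogene row does not show that few reads are shared with its parent, since the treatment of reads with several matches is not given. Genes on the opposite strand also share exonic bases with PSMD7 (30.7%), PSMB8 (20.6%), PSMC5 (19.5%), PSMG2 (16.7%), PSMG4 (15.0%) and PSMD1 (10.8%). The use of strand in the counting is not given in the sources used here, so reads of such pairs cannot be told apart.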

How the data were processed

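RNA of TE5 cells was sequenced in bulk in 2 control and 2 ETS1 libraries. HISAT2, HTSeq and DESeq2 and the builds hg38 and GRCh38 are named in the submitters' processing notes, without versions or settings; the use of strand is not given in the sources used here. The authors deposited FPKM for 55764 genes. A second table holds the authors' log2 fold changes with p-values and adjusted p-values for 16652 genes, and their mean normalized signal per gene, per the file headers. FPKM times length gave whole reads (within 0.01) in all 4 libraries for 99.6% of those genes. Of 13395 lengths compared, 60.4% equalled a GENCODE 29 exon union taken as end minus start, which leaves out a base per merged exon.

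The 14306 genes whose mean FPKM reached 1 were fitted as log2(FPKM + 1) with limma 3.58.1 in R 4.3.3, with an intensity trend and Benjamini-Hochberg adjustment over all of them, two-sided, at 0.05. This scale understates the change of low genes. Each gene had 2 residual and 2.84 prior degrees of freedom. The limma fit was also run on simulated data in which few genes changed and no chromosome was shifted. These data differ in both, so the simulation does not show how scaling and calls hold here. No count model other than voom on recovered reads was run.

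Values in every library are given for ETS1, the immunoproteasome, catalytic, regulator and chaperone genes, and in each other group the 2 largest and 2 smallest log2 changes, and at most 3 genes with the largest change of each list, unless marked; values of a few list genes are not reported here. Members and lists were chosen with earlier results of these data known. Members were set beside GENCODE 29 positions and RefSeq GRCh38.p14 promoters. The alternatives were another pseudocount and filters, other scalings and variance priors, a replicate block, voom, chromosome and length trends, a stricter threshold, the authors' values and leaving out each library. Protein sequences were not used here.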

Additional observations from a re-analysis of the deposited data

How the results depend on the processing

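The count of 25 lower members ranged from 19 to 29 over the alternatives and stayed within 1.5 times its value. The count of 4 higher members was 2 with no filter, trimmed-mean scaling, a replicate block, a constant prior variance or the authors' deposited comparison, 1 at an adjusted p under 0.01, 0 with the chromosome median removed, and from 0 to 3 leaving out each library. The median of -0.16 was -0.17 with trimmed-mean scaling (-0.169) and with the length trend removed (-0.172), -0.058 with quantile normalization, -0.19 with the chromosome median removed and -0.18 in the authors' deposited comparison. For the ubiquitin genes the 2 higher became 1 with no filter, length trend removed or an adjusted p under 0.01, and from 1 to 2 leaving out each library, and the 3 lower became 0 with quantile normalization. The 1 higher carrier became 2 with quantile normalization or the chromosome median removed, and the 4 higher interferon regulators became 7 in voom at a mean of at least 10 reads, an alternative added after seeing the data, which tests more of them.

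Of 675 member values over the alternatives, 580 kept their side of the threshold and direction, 58 lost a call and 21 gained one in the same direction, and 16 changed sign, of which 4 also lost a call and 1 gained one. With quantile normalization PSMA7 became 0.042, PSMB4 0.047, PSME2 0.034, PSMC3 0.020, PSMG3 0.015 and PSMD4 0.14. With the chromosome median removed PSMA3 became -0.0011 and PSMD2 -0.025. With the length trend removed PSMC1 became 0.010, PSMD2 -0.041, PSMD4 0.0065 and PSME4 -0.023, and the authors' deposited value for PSMD2 was -0.0084. Leaving out each library, PSMC1 ranged from -0.055 to 0.034, PSMD2 from -0.018 to 0.046, PSMD4 from -0.069 to 0.0087, and the log2 ratio change of PSMB9 to PSMB6 from -0.22 to 0.11. The cause of these changes was not tested. With the replicate block 24 members were lower and 2 higher; same-numbered libraries did not deviate together (correlation -0.046 across 14306 genes), so the numbers were not taken to pair them. The chromosome alternative covers genes with a known chromosome only. Even at 40333082 to 57236984 recovered reads a library, genes under 1 FPKM such as PSMB8, PSMB9 and PSMB10 rest on few reads.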
